A study of Mus musculus with 12 samples.

Results

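Of 17416 genes in a table of mouse lateral habenula RNA-seq libraries, 207 had no read in any of the 4 libraries of at least 1 group while reaching a mean of at least 0.5 CPM in another group, CPM being counts per 1000000 assigned reads. The libraries came from C57BL/6 mice aged 9 weeks, with 4 from non-defeated mice, 4 from mice classed as susceptible and 4 from mice classed as resilient to social defeat stress. The habenula was punched from 500 µm slices, and each library was made from 100 pg of RNA with a kit that amplifies full-length cDNA. The labels name no transgene. Nothing in them says that every library came from its own mouse, so any p-value measures the spread between these samples. Acan and Brs3 were left out of the 207. The same reads chose the genes and describe them, so no test of their group differences is offered as a finding. Another 2 genes at the edge, Clhc1 and Prss16, stayed outside with highest group means of 0.499 and 0.496 CPM, and Gm28447 and Rgs18 lay just inside with 0.501 and 0.511 CPM.

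The lateral habenula is a small nucleus of the epithalamus whose mostly glutamatergic neurons act on midbrain dopamine and serotonin cells, and it is studied for its part in aversion and in stress-induced behaviour. Its neurons no longer divide, and transcripts found only in dividing cells or in rare cell types may be present in such tissue at low levels. E2F8, one of the genes described here, is an atypical E2F transcription factor that binds DNA without a DP partner and represses genes of the S phase. With very little starting RNA, a transcript present in few copies may or may not enter a library, and a gene without a read is not a gene without RNA.

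Depth was 33.3 to 47.7 M reads (M, 1000000) per library, and 1 read stood for 0.0209 to 0.0300 CPM. A group pooled 157 to 174 M reads, so a count of 0 in a whole group allows a level of up to 0.0173 CPM in non-defeated mice, 0.0191 CPM in the susceptible group and 0.0184 CPM in the resilient group, taking 3 reads over the pooled group as the limit. Such limits, and the folds against them, cover counting error only, because reads amplified without molecular identifiers are not independent molecules. Lists of lateral habenula markers had reads for 11 of 12 genes, with a summed level of 2520 to 3693 CPM per library. Every gene of the table had a read in at least 3 libraries, and its third-highest library was at 0.503 CPM or more, so a gene read in fewer libraries could not appear among the 207.

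The promoters of E2f8 and Oip5, the pair of named cell division genes read in every resilient library and in none of the other 8, are shown because both genes belong to a class commonly controlled through promoter elements of the cell cycle. Each sequence is the 250 bases before the start site from RefSeq, build GRCm38.p6, on the minus strand, at chr7:48881597-48881846 for E2f8 and chr2:119618506-119618755 for Oip5. Capitals mark matches to CCAAT or to TTTGAA on either strand.
E2f8: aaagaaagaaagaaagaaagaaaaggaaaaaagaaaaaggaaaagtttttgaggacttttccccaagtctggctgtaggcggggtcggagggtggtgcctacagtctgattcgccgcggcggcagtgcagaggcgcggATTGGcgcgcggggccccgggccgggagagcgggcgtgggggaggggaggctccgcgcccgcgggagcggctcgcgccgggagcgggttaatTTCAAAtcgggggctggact
Oip5: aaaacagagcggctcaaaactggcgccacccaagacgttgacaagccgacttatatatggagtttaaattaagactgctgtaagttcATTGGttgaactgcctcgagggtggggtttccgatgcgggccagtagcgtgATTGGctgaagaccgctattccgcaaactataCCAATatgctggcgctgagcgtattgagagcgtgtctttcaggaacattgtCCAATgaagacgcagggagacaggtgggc
The CCAAT box, bound by the factor NF-Y, was found 1 time in the E2f8 promoter, as its reverse complement at bases 139 to 143, and 4 times in that of Oip5. It was present in 33.9% of 32851 RefSeq promoters of the same upstream length. The cell cycle homology region TTTGAA was found as TTCAAA at bases 231 to 236 of the E2f8 promoter, 14 bases before the start site, and not in that of Oip5, against 16.0% of all promoters. None of 4 E2F words, TTTCCCGC, TTTCGCGC, TTTGCCGC and TTTGGCGC, was present in either sequence on either strand, against 1.86% of all promoters. A match is a description of letters, and its absence says only that these letters are not in the window.

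The 207 genes fell into 6 patterns. Unread in non-defeated mice alone were 83 genes, in susceptible mice alone 94 and in resilient mice alone 23. In 2 groups at once, 3 genes lacked a read in non-defeated and susceptible mice, 2 in non-defeated and resilient mice, and 2 in susceptible and resilient mice. Counted by group, 88 genes were unread in non-defeated mice, 0.528% of the 16657 genes that reached 0.5 CPM in another group. The corresponding counts were 99 of 16704 genes, 0.593%, in susceptible mice and 27 of 16681 genes, 0.162%, in resilient mice. All patterns together made 1.22% of the 16971 genes with a mean of at least 0.5 CPM in a group, Acan and Brs3 again left out.

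**Figure D1:**
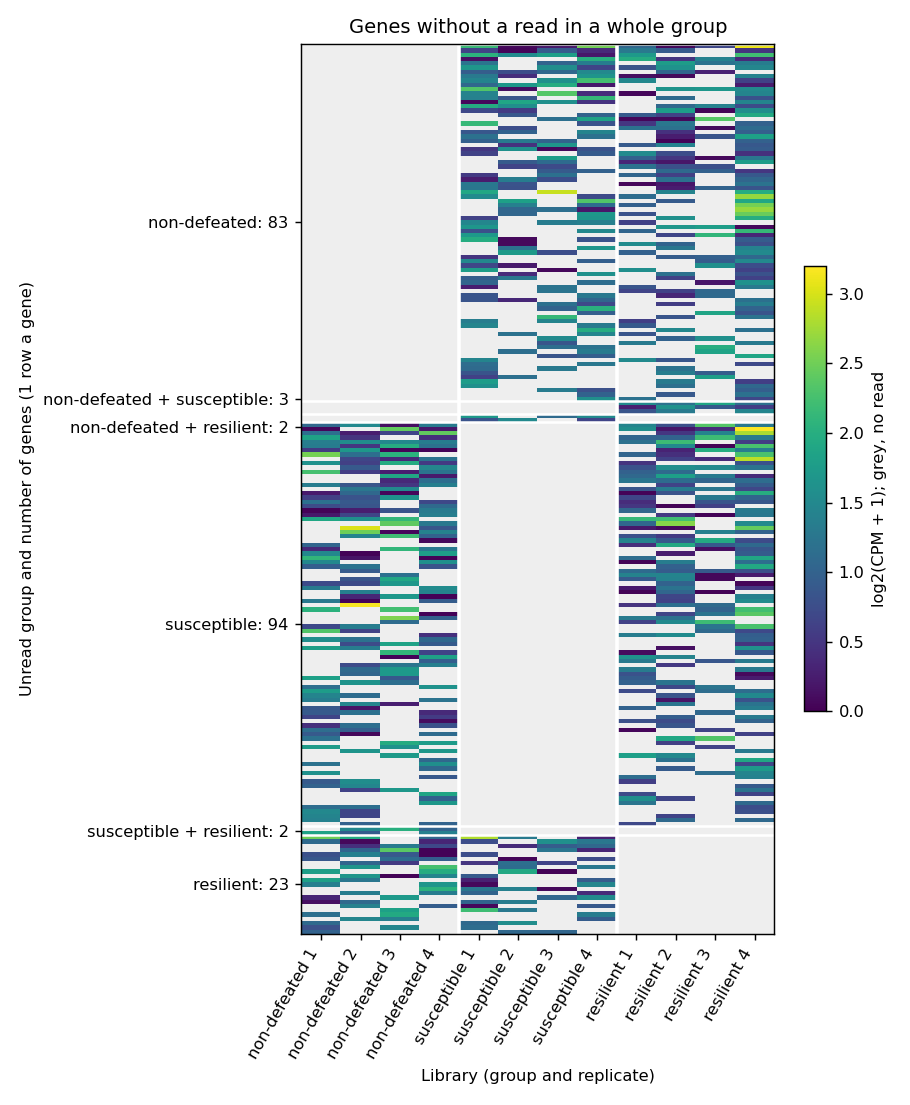
Level of each of the 207 genes (rows, grouped by the groups without a read) in the 12 libraries (columns), coloured by log2(CPM + 1) with grey for no read. The grey blocks are the unread groups that the choice of genes requires, and outside them most rows are broken by further libraries without a read.

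Few of these genes were read throughout the group in which they were highest. A read was present in all 4 libraries of the highest group for 28 genes, in 3 for 70, in 2 for 99 and in 1 for 10. Ddr2 alone was unread in non-defeated mice and read in all 8 other libraries, and Cnga4 alone was unread in susceptible mice and read in all 8 others. The highest group mean ran from 0.501 to 2.66 CPM with a median of 0.878 CPM. The library with the most reads gave a median of 59.2% of its group's summed CPM, and over 90% for 11 genes. The same share had a median of 34.3% over the 16764 other genes at 0.5 CPM or more, and of 55.3% over the 820 of those whose mean level lay in the middle range of the 207.

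**Figure D2:**
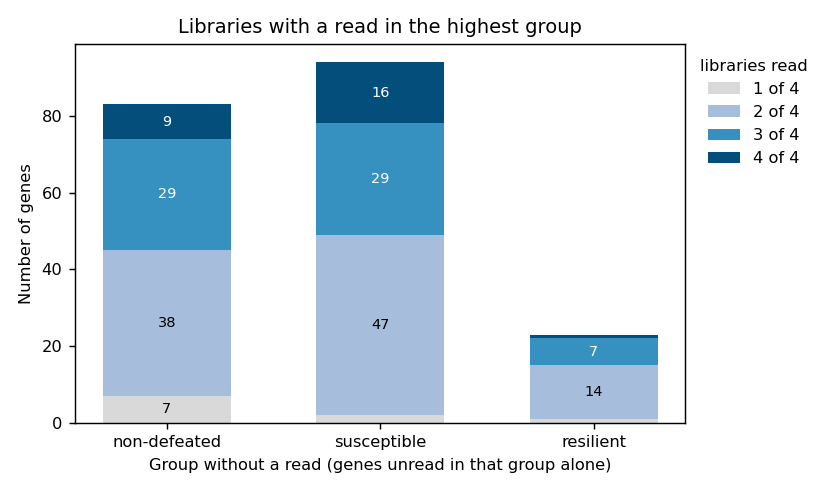
Number of genes (vertical axis) unread in 1 group alone, by that group and by how many of 4 libraries had a read in the group where the gene was highest; segments of 3 or fewer genes carry no number. In all 3 bars the largest segment is the one with a read in 2 of 4 libraries, with 38, 47 and 14 genes.

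Genes at this level were often unread somewhere. Among all 16971 genes at 0.5 CPM or more, 1404 had no read in 4 or more libraries, and 14.7% of those were unread in a whole group. Between 0.340 and 0.577 CPM over the 12 libraries, the middle range of the 207, lay 923 genes, of which 547 were unread in 4 or more libraries and 149 were read in all 12. Of the genes unread in exactly 4 libraries, 2 of 346 had those 4 in a single group, and these were Ddr2 and Cnga4.

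Cell division and DNA repair genes, 15 of the 207 by a grouping made by hand after the genes were known, included E2f8. E2f8 lies at chr7:48866429-48881596 on the minus strand and codes for a protein. It had 83, 53, 117 and 42 reads in resilient replicates 1 to 4, which are 1.83, 1.30, 2.71 and 1.26 CPM. No read was present in the 4 non-defeated or the 4 susceptible libraries. The resilient mean was 1.77 ± 0.673 CPM (SD, n = 4), and the pooled resilient level was at least 105-fold higher than the non-defeated limit. Its exons overlap those of Gm2788 on the opposite strand, and since the use of strand is not given in the sources used here, reads of such a pair cannot be told apart. The same limit holds for the other genes named below with an overlap, and for Ckap2l, Lancl3 and Slc16a5, which overlap Gm14024, Gm14862 and Gm11695. It holds too for Zgrf1, Tbx18 and Rad54b, which overlap Gm43729, D030062O11Rik and Gm11832 on the opposite strand. On the same strand, Rad54b overlaps Fsbp and Parp14 overlaps Gm49730.

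Oip5, also named Mis18b, codes for a centromere protein needed to load the histone variant CENP-A. It had 10, 84, 38 and 17 reads in the resilient libraries, or 0.220, 2.06, 0.879 and 0.510 CPM, and none elsewhere. The pooled resilient level was at least 53.0-fold higher than the non-defeated limit, with replicate 2 the highest. Its exons overlap those of Nusap1, a spindle protein gene on the opposite strand, which had reads in 10 of the 12 libraries. Nusap1 was at 2.95, 2.24, 0.416 and 1.50 CPM in resilient mice, and at 0 to 1.35 CPM in the other 2 groups. Its groups thus overlapped, but like Oip5 it had its highest mean in the resilient group, 1.78 CPM. Its means were 0.701 CPM for the non-defeated group and 0.474 CPM for the susceptible one. The order of Nusap1 over the resilient libraries was not that of Oip5, and whether the 2 genes share reads was not tested.

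Of the other 13 genes of cell division and DNA repair, 10 were unread in susceptible mice alone and 3 in non-defeated mice alone. Ckap2l, a mitotic spindle protein, was at 2.74, 2.02, 3.35 and 0 CPM in non-defeated and 3.37, 3.66, 0 and 0 CPM in resilient mice. Uhrf1, which guides DNA methylation at replication forks, was read in replicates 3 and 4 of non-defeated mice, at 4.29 and 1.43 CPM, and in 3 resilient libraries at 1.10, 5.13 and 1.83 CPM. Both genes were thus at 0 in at least 1 library of each group in which they were read. Cdc6, which loads the replicative helicase, was read in non-defeated replicate 1 at 1.28 CPM and in resilient replicates 2 and 3 at 2.75 and 4.02 CPM. Ccnb2, a mitotic cyclin, reached at most 2.24 CPM, in non-defeated replicate 3. Ndc80, of the outer kinetochore, was unread in non-defeated mice and was at 1.75, 0, 1.53 and 1.62 CPM in susceptible mice, with 0.529 CPM in 1 resilient library. In these 5 genes the reads lay in 1 to 3 libraries of a group.

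Zgrf1, a helicase of DNA repair, was read in all 4 non-defeated libraries, at 1.24, 0.197, 0.566 and 4.36 CPM, and it was at 0, 0.418, 1.69 and 5.92 CPM in resilient mice. Cenpi, of the inner kinetochore, was also read there throughout, at 0.456, 2.22, 0.0209 and 0.0255 CPM, of which the last 2 values stand for 1 read each. Mms22l, of homologous recombination, was read in all 4 resilient libraries, at 0.352, 2.80, 0.879 and 1.14 CPM, and in 1 non-defeated library at 1.06 CPM. In all 3 genes the susceptible group was the unread one. Kif20b, a kinesin of cytokinesis, was at 0.282, 0, 3.29 and 1.43 CPM in non-defeated mice and below 1 CPM in every resilient library. Rad54b, a recombination factor, was unread in non-defeated mice and was at 0, 2.41, 0.0231 and 1.98 CPM in resilient mice. The 15 genes had a median of 5 libraries with a read.

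Genes of the extracellular matrix numbered 7, with 4 unread in non-defeated and 3 in susceptible mice. Ddr2, a receptor tyrosine kinase that binds fibrillar collagen, was at 3.51, 0.0569, 0.178 and 4.72 CPM in susceptible and 1.10, 0.0491, 0.601 and 7.57 CPM in resilient mice. It was read in all 8 libraries of defeated mice, but replicates 2 of both groups held only 2 reads each. The exons of Ddr2 overlap those of 3110045C21Rik on the opposite strand, which had a mean of 4.25 CPM over the 12 libraries. Col5a2, a chain of type V collagen, was at 2.79, 0, 6.60 and 0 CPM in susceptible and 0, 1.70, 0 and 2.97 CPM in resilient mice. Its pooled susceptible level was at least 140-fold higher than the non-defeated limit, the highest such fold of the 207 genes, and it came from 2 libraries. Mmrn2, an endothelial matrix glycoprotein, had no read in susceptible mice and was at 0.0434, 0, 4.38 and 0.153 CPM in non-defeated and 1.98, 0.147, 0.324 and 8.17 CPM in resilient mice.

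Resilient replicate 4 held the highest level of both Ddr2 and Mmrn2 among the resilient libraries. That was not particular to these genes, since Zgrf1 and Pik3cg, of other roles, were also highest in it. It had reads for 140 of the 207 genes, against 46 to 112 in the other libraries. The summed level of 8 endothelial and mural markers was 386 CPM in that library against 35.3 to 56.9 CPM in the other 3 resilient libraries, 44.4 to 86.0 CPM in the susceptible ones and 44.4 to 65.1 CPM in those of non-defeated mice. All 8 markers were measured, and none is among the 207 genes. The part of these cells in the levels of Ddr2 and Mmrn2 was not tested, and in tissue punches fewer cells of a type and less RNA per cell cannot be told apart.

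Immune and interferon genes numbered 16, with 10 unread in non-defeated, 5 in susceptible and 1 in both. Ifi47, an interferon-induced GTPase, was the 1 unread in both, with 36, 61, 0 and 58 reads in the resilient libraries, or 0.793, 1.50, 0 and 1.74 CPM. Its exons overlap those of Olfr56 on the same strand and Gm12188 on the opposite strand. Arhgap25, a Rac GTPase-activating protein of blood cells, was at 3.16, 1.91, 2.47 and 0.151 CPM in susceptible mice and at 2.31, 0, 0 and 3.66 CPM in resilient mice. Alox5, the enzyme that begins leukotriene synthesis, was read in 2 susceptible libraries at 2.91 and 1.99 CPM and in 3 resilient libraries at 0.661 to 1.64 CPM. Mgl2, a macrophage lectin, was at 1.17, 0.909, 0.879 and 0.721 CPM in resilient mice, at 0.887 CPM in a single non-defeated library and without reads in susceptible mice. The summed level of 5 blood cell markers ran from 264 to 830 CPM in libraries of non-defeated mice, from 865 to 5723 CPM in susceptible and from 1039 to 2272 CPM in resilient ones, and the sum of 8 microglial markers was 172 to 310 CPM over all 12. Blood markers were thus lowest in the non-defeated group, in which 11 of the 16 genes were unread, and their part in these genes was not tested. Pik3cg, a phosphoinositide 3-kinase of leukocytes, had no read in susceptible mice, 0 to 1.33 CPM in non-defeated mice and 0, 0.540, 0.301 and 6.28 CPM in resilient mice. Parp14, an interferon-responsive ADP-ribosyltransferase, reached 7.12 CPM in non-defeated replicate 2 and 4.41 CPM in resilient replicate 4, and was below 1 CPM in the other 6 libraries outside the susceptible group. Each of these had most of its reads in 1 library a group. Gbp11, Oas1b and H2-Q7 belong to families of similar sequence, and their counts are uncertain.

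Transcription factors and cofactors numbered 14, of which 5 were unread in the non-defeated group, 7 in the susceptible and 2 in the resilient group. Dlx2, a homeobox factor of forebrain inhibitory neurons, was at 1.72, 0.860, 2.87 and 0.661 CPM in resilient mice and had 0, 0, 0 and 0.0510 CPM in non-defeated mice. The lowest resilient library was above every library of the other groups, in a gene chosen from these same reads. Vgll3, a cofactor of TEAD factors, was unread in non-defeated mice and was at 1.71, 0, 2.04 and 3.71 CPM in susceptible mice. Npas4, an early gene of neuronal activity, had no read in susceptible mice and was at 0, 1.77, 0.209 and 0 CPM in non-defeated and 0, 1.38, 0 and 1.32 CPM in resilient mice. Tbx18, a T-box factor of pericytes and other mural cells, was unread in non-defeated mice and was at 0.554, 0, 0 and 2.17 CPM in susceptible and 0, 2.04, 0 and 2.97 CPM in resilient mice. Its highest library was resilient replicate 4, as for Ddr2, Mmrn2, Zgrf1 and Pik3cg. Npas4 was unread in 4 of the 8 libraries outside the susceptible group.

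Genes of signalling between neurons and of sensory cells numbered 11, of which 1 was unread in the non-defeated group, 5 in the susceptible and 5 in the resilient group. Cnga4, a modulatory subunit of the olfactory cyclic nucleotide-gated channel, was at 1.11, 1.82, 0.0838 and 1.50 CPM in non-defeated and 1.74, 0.712, 4.05 and 1.44 CPM in resilient mice. All 4 susceptible libraries lacked a read, and the pooled resilient level was at least 107-fold higher than their limit. Omp, the olfactory marker protein, had its empty group in resilient mice, with 0, 2.14, 0 and 3.75 CPM in non-defeated mice, 0, 1.20, 0 and 1.41 CPM in susceptible mice. Tph2, the rate-limiting enzyme of brain serotonin synthesis, was unread in resilient mice and was at 0.0868, 1.13, 0 and 0 CPM in non-defeated and 1.06, 1.54, 0 and 0 CPM in susceptible mice. Hcar1, a receptor for lactate, reached 4.21 CPM in non-defeated replicate 3 and was read in 2 susceptible libraries. Kcnk5, a potassium channel, was unread in susceptible mice and was at 0, 4.63, 0.0419 and 1.68 CPM in non-defeated and 0, 0, 1.62 and 1.02 CPM in resilient mice. Draxin, an axon guidance protein, was at 2.45, 0, 0 and 2.96 CPM in non-defeated and 0, 2.82, 0.0255 and 0 CPM in susceptible mice. Of these genes, only Cnga4 was read in every library of any group.

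Outside these roles, Stbd1 was the gene unread in susceptible mice whose lowest library in a fully read group was the highest. It codes for a glycogen-binding protein and was at 1.58, 1.97, 1.80 and 1.56 CPM in non-defeated mice, a mean of 1.73 ± 0.196 CPM (SD, n = 4). In resilient mice it was at 1.28, 3.59, 0 and 0.480 CPM, so 1 resilient library was also unread. Cytl1, a secreted cytokine-like protein, was at 1.37, 1.18, 1.06 and 1.20 CPM in resilient and 0, 0, 0.293 and 1.22 CPM in non-defeated mice. Slc16a5, of the monocarboxylate transporter family, was at 0.749, 1.99, 1.83 and 1.35 CPM in resilient mice and was read in 2 non-defeated libraries at 0.863 and 1.76 CPM. Tdrd1, a Tudor protein of the germline, was 1 of the 2 genes read in susceptible mice alone, at 2.26, 0, 1.15 and 1.87 CPM. Lancl3, of the LanC-like family, had the highest mean of the genes unread in resilient mice, with 4.60, 2.91, 0 and 1.10 CPM in non-defeated and 6.04, 1.48, 0 and 0.227 CPM in susceptible mice. Efhb, an EF-hand protein, was the only gene unread in resilient mice with a read in every library of another group, at 0.716, 1.63, 0.859 and 0.0255 CPM in non-defeated mice.

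**Figure D3:**
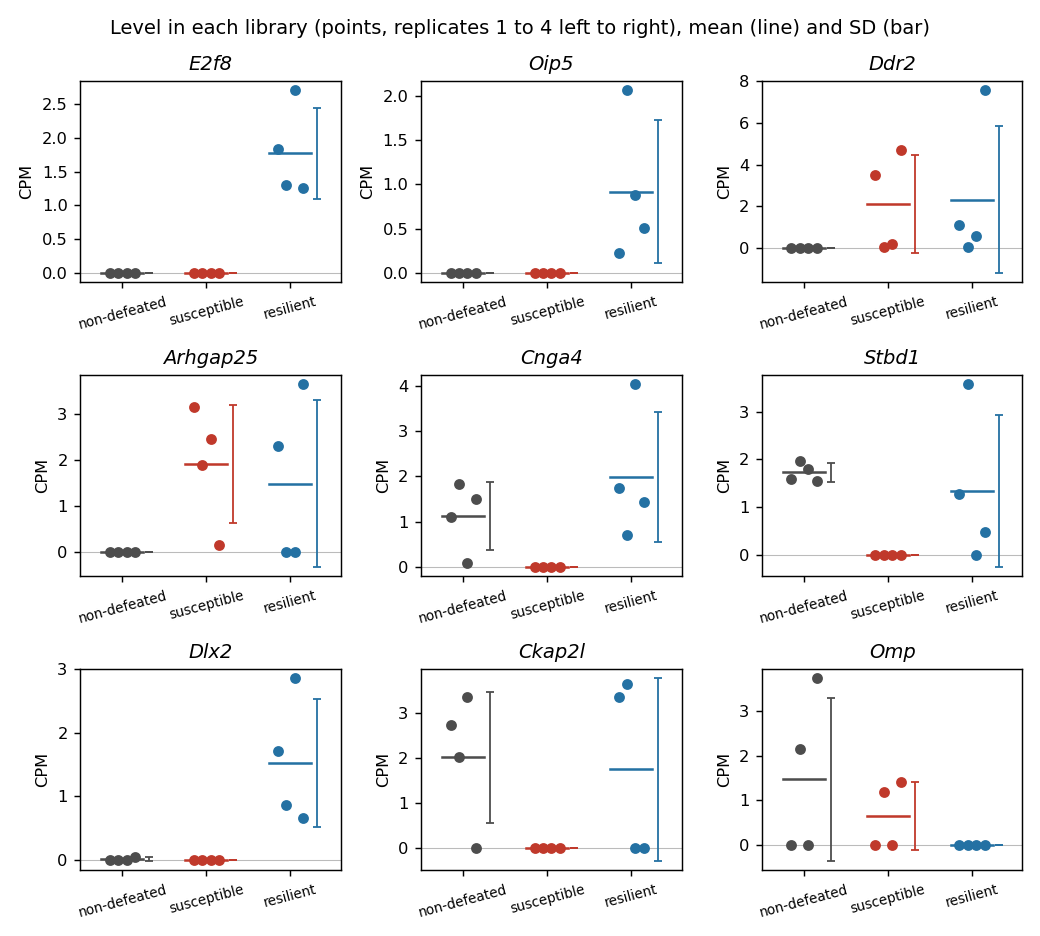
CPM in each library (points) with group means (lines) and SDs (bars) for 9 of the genes named in the text, by group. E2f8 has 4 resilient points between 1.26 and 2.71 CPM and none above 0 elsewhere, whereas Ddr2 spans 0.0491 to 7.57 CPM within the resilient group.

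Predicted genes without an assigned function were also among those with a read in every library of a group. Gm26519 was unread in non-defeated mice and was at 0.923, 0.683, 1.10 and 1.84 CPM in susceptible mice, with 0, 1.06, 0.231 and 0 CPM in resilient mice. Gm19744, which overlaps Tenm3 on the opposite strand, was at 1.11, 2.22, 2.96 and 0.151 CPM in susceptible mice and at 0.180 CPM in resilient replicate 4 alone. Gm44742 was at 0.438, 2.05, 0.0510 and 0.757 CPM in susceptible mice and likewise read in resilient replicate 4 alone, at 0.901 CPM. For the latter pair, all other resilient libraries were at 0, as was the whole non-defeated group.

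Gm38910, unread in non-defeated mice, was at 2.91, 0.393, 1.64 and 0.30 CPM in resilient mice and at 0.0923, 0, 0 and 3.03 CPM in susceptible mice. Gm43011, unread in susceptible mice, was at 1.06, 1.03, 3.59 and 1.50 CPM in resilient and 2.58, 0.394, 0 and 0.357 CPM in non-defeated mice. Gm37124, also unread in susceptible mice, was at 4.75, 1.23, 3.10 and 0 CPM in non-defeated and 1.06, 0.344, 0 and 3.84 CPM in resilient mice. In each of these 3 genes the levels of the 2 read groups overlapped.

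Among the other genes read in 1 group alone, Gm44894 was read in susceptible mice at 0.761, 1.85, 0 and 0.580 CPM. The RNA 5730419F03Rik was read in non-defeated mice alone, at 0, 1.80, 3.04 and 1.02 CPM. Gm12462, whose exons overlap Pax5 on the opposite strand, was also read in non-defeated mice alone, at 2.58, 0.912, 0 and 1.63 CPM. In each of these, as in Tdrd1, 1 library of the read group was also without a read.

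By annotation, 127 of the 207 genes, 61.4%, were protein coding, 71 were long non-coding or of unsettled type, 8 were pseudogenes and 1 was of another class. Among the other 16764 genes at 0.5 CPM or more, 85.2% were protein coding. Among the 820 of similar level, 44.0% were protein coding, so the coding share of the 207 lay between these. The median exon length was 3050 bases, against 4023 bases in the 16764 genes and 2030 bases in the 820. Exons of 39 of the 207, 18.8%, overlapped a gene on the opposite strand, against 30.4% of the 16764 and 25.4% of the 820.

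The number of these genes with a read differed between libraries of the same group. Of the 207, non-defeated libraries had reads for 67, 72, 54 and 73, susceptible libraries for 68, 49, 46 and 64, and resilient libraries for 89, 112, 67 and 140. Among the other genes at 0.5 CPM or more, those without a read numbered 744, 672, 1487 and 741 in non-defeated, 641, 1055, 946 and 844 in susceptible and 760, 608, 1204 and 202 in resilient libraries. Resilient replicate 4, the library of lowest depth, thus had the fewest unread genes, and non-defeated replicate 3, the deepest, had the most. Without resilient replicate 4, the genes unread in the remaining resilient libraries numbered 183 in place of 27, against 49 to 60 without another resilient library. Resilient replicate 4 alone carried the resilient reads of 156 genes at 0.5 CPM or more elsewhere, against 31, 33 and 22 genes for replicates 1, 2 and 3. With 1 library of their own group left out, the counts were 122 to 190 in non-defeated and 160 to 226 in susceptible mice. Each library left out adds genes to its own group by construction, and why the resilient count was lower was not tested. Without both resilient replicate 4 and non-defeated replicate 3, 374 genes were unread in a whole group, 188 of them in resilient mice.

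**Figure D4:**
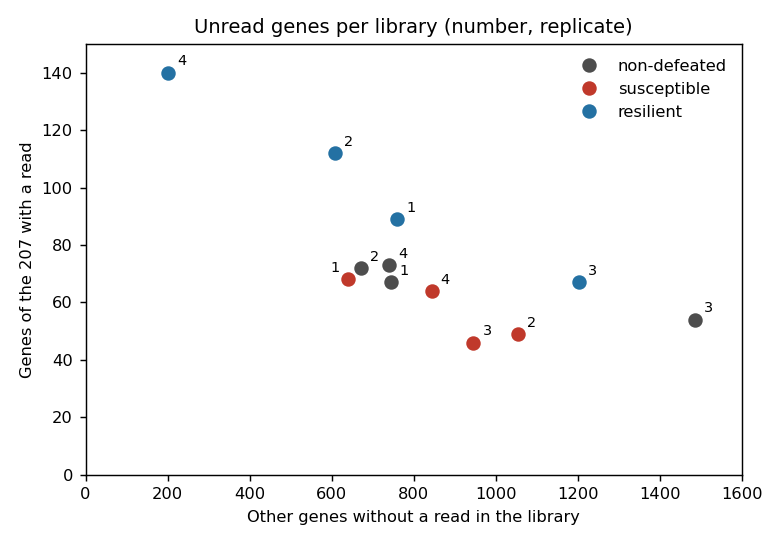
For each library (points, coloured by group and numbered by replicate), how many other genes at 0.5 CPM or more had no read (horizontal axis) and how many of the 207 genes had one (vertical axis). Resilient replicate 4 stands at 202 and 140, and non-defeated replicate 3 at 1487 and 54.

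A letter in the sample titles, H or N, whose meaning the labels do not state, was H in all non-defeated libraries and in susceptible replicates 1 and 2, and N in the others. It cannot be told apart from the contrast of non-defeated with resilient mice, but it divides the susceptible group. Of 85 genes unread in non-defeated and read in susceptible mice, 17 were read only in the H susceptible libraries, 16 only in the N ones and 52 in both. Of the 207 genes, 19 were unread in all 6 H libraries and 8 in all 6 N libraries. Libraries of either letter include a whole group, so these are by construction also the counts over all 16971 genes at 0.5 CPM or more. E2f8, Oip5 and Ifi47 were read in N libraries alone, but were unread in the 2 N libraries of susceptible mice.

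Tests across all genes used the same contrasts that chose the genes, and their calls are given as a description from which nothing is read. A filter on low counts kept 17111 genes and 116 of the 207, and removed the other 91. With limma-trend at an adjusted p under 0.05, 0 of these 116 were called in each comparison, where the share of all genes was 0% for susceptible against non-defeated, 0.00584% for resilient against non-defeated and 0.0468% for susceptible against resilient. At an unadjusted p under 0.05 limma-trend gave 29, 23 and 21 of the 116, with 3.54%, 7.14% and 3.51% of all genes. The quasi-likelihood test of edgeR on the recovered reads called 0 genes of any kind in each comparison. At an unadjusted p under 0.05 edgeR gave 102, 61 and 62 of the 116, with 2.95%, 6.1% and 2.81% of all genes, and these counts too follow from the choice of the genes. DESeq2 on the same reads called 12, 8 and 11 of the 116, against 0.135%, 0.516% and 0.223% of all genes. In the authors' deposited table, 14 of the 207 had an FDR under 0.05 in a test over the 3 groups, as had 0.293% of all genes. The lowest FDR of the 14 was that of E2f8, 0.000330 in the authors' deposited table.

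Lists of genes related to E2f8 held 48 genes, of which 43 were in the table and 3 were among the 207, namely E2f8, Cdc6 and Ccnb2. Lists of markers of other cell types held 93 measured genes and none of the 207. With limma-trend no gene of the 3 lists was called in any comparison, at an adjusted p under 0.05. In the E2F family, 12 genes had a median log2 difference of 0.17 for resilient against non-defeated mice, on the scale of log2(CPM + 1), where all genes had 0.02. E2f8 is among the 12 and was chosen for its reads in this contrast. Without E2f8 the median was 0.10, and it was 0.04 for all 12 with edgeR and 0.03 with DESeq2. The log2 differences of edgeR and DESeq2 are taken without adding 1 CPM, so they are on another scale. E2f6, a repressor E2F, was at 122 ± 20.1 CPM in resilient and 91.3 ± 27.6 CPM in non-defeated mice (SD, n = 4), a log2 difference of 0.44 ± 0.21 (SE). E2f1, an activator of S phase genes, was at 4.37 ± 1.61 and 2.28 ± 0.851 CPM in these groups (SD, n = 4), and its range overlapped between them. E2f2, another activator, was read in 1 non-defeated library at 1.63 CPM and in all 4 resilient libraries at 0.154, 0.688, 3.68 and 3.27 CPM, and was likewise not called. Of the 11 family members other than E2f8, 7 were above 0 in that comparison, against 52.8% of all genes.

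In 21 cell cycle genes under E2F control, the median log2 difference was 0.15 for susceptible against non-defeated, 0.20 for resilient against non-defeated and -0.19 for susceptible against resilient mice. The medians of all genes were 0.01, 0.02 and -0.02. With edgeR the first of the list medians was 0.25 and the last -0.07. Tyms, which makes thymidylate for DNA synthesis, was at 0.415, 3.47, 0.815 and 0.656 CPM in susceptible and 2.75, 3.78, 5.18 and 6.46 CPM in resilient mice. The log2 difference of Tyms was -1.33 ± 0.43 (SE), 1 susceptible library lay within the resilient range, and limma's adjusted p was 0.9996. Mcm2, of the replicative helicase, was at 0, 2.85, 0.586 and 0.0505 CPM in susceptible and 0.947, 3.24, 7.91 and 5.31 CPM in resilient mice, groups that overlapped. Rrm1, a subunit of ribonucleotide reductase, was at 16.4, 6.58, 13.8 and 8.88 CPM in non-defeated and 25.6, 17.9, 22.2 and 22.6 CPM in susceptible mice. These groups did not overlap, but Rrm1 was named for its small unadjusted p in the list. The share of all genes without overlap was not counted. With a log2 difference of 0.99 ± 0.37 (SE), limma's adjusted p for Rrm1 was 0.998.

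In 9 genes of proliferating cells the same 3 medians were 0.24, 0.39 and -0.30. They moved by more than a factor of 1.5 with the method, to 0.73, 1.33 and -1.07 with edgeR, which does not add 1 CPM. The middle value was 0.14 without resilient replicate 3. Without Ccnb2, which is among the 207, the medians of the other 8 were 0.25, 0.40 and -0.23. The summed level of all 9 genes, Ccnb2 included, ran from 2.17 to 6.55 CPM in libraries of non-defeated mice. It ran from 3.42 to 7.19 CPM in susceptible and from 3.46 to 15.6 CPM in resilient ones, so all 3 ranges overlapped. Cenpf, a kinetochore protein of dividing cells, was at 0.0868, 0.148, 0.209 and 0.153 CPM in non-defeated and 0.286, 1.97, 2.52 and 1.17 CPM in resilient mice. These groups did not overlap, but Cenpf too was named for its small unadjusted p, and the share of all genes without overlap was not counted. Limma's adjusted p for Cenpf was 0.591. Kif11, a mitotic motor, was read in 2 of 4 resilient libraries, at 7.66 and 2.10 CPM. Kif11 had reads outside that group too, reaching 0.153 CPM among non-defeated libraries and 0.669 CPM among susceptible ones. Plk1, of the same list, went the other way, with its lowest mean, 0.163 CPM, in the resilient group. The Plk1 mean was 0.585 CPM for non-defeated libraries, while the susceptible mean was 0.834 CPM. Of the 9 genes, 6 had a log2 difference above 0 for resilient against non-defeated mice.

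**Figure D5:**
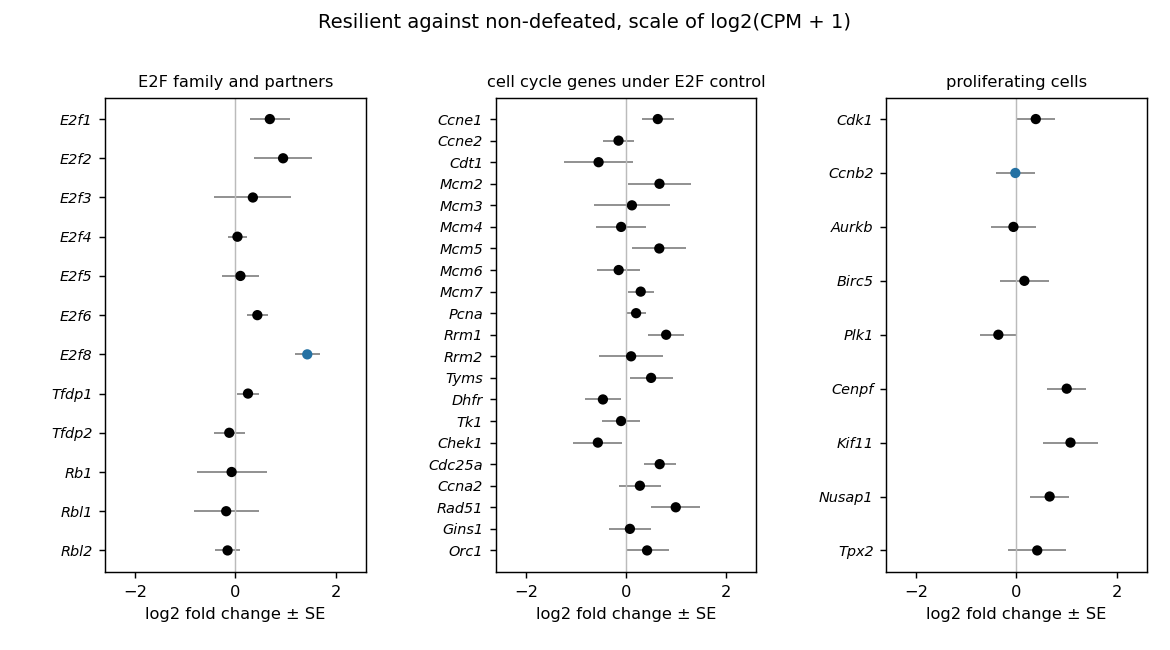
Log2 difference of resilient against non-defeated mice with its SE (points and bars, horizontal axis, scale of log2(CPM + 1)) for each tested gene of 3 lists. Genes among the 207 are in blue, and the points of each list fall on both sides of 0.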

How the data were processed

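The series holds 12 lateral habenula RNA-seq libraries in 3 labelled groups of 4. Per the submitters' processing notes, featureCounts assigned the reads on build GRCm38 (mm10), and edgeR was the test. Aligner, versions and strand setting were not given in the sources used here. The 12 deposited columns are headed as read counts, yet the numbers in them are CPM with 0.00608 added to each. Less this constant, 100% were a whole number of reads, to within 0.001 read, and those reads were used as recovered. The authors also deposited, per the file headers, a score (likelihood ratio), log2 fold changes, and p-values with FDR, of which the FDR is cited. Deposited correlations with a behavioural measure were not used.

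The genes were chosen from the CPM itself. They and all lists and roles were chosen with earlier results of these data known, and roles were assigned by hand. GENCODE M21 held 17402 of the identifiers and lacked 14. One closing line named no gene.

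The main test was limma-trend (limma 3.58.1, R 4.3.3, robust) on log2(CPM + 1) after TMM scaling (edgeR 4.0.16), with group means over 12 libraries, filterByExpr (minimum count 10) and Benjamini-Hochberg adjustment at 0.05. It replaced edgeR's count test, planned in case the file held counts. The quasi-likelihood test of edgeR and DESeq2 1.42.0 on recovered reads were alternatives. The limma procedure was tested on simulated data. Genes named were E2f8, per unread group the 8 with the highest lowest library among those read in every library of a group and the 3 of highest mean, those unread in 2 groups, those next to 0.5 CPM, and up to 4 of each related list by unadjusted p. Others were chosen after their values were seen. Folds against an unread group use pooled reads and 3 reads as the limit. Replicate numbers were not used as pairs, since same-numbered libraries did not deviate together, with r from -0.194 to 0.127 over 12 pairs.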

Additional observations from a re-analysis of the deposited data

Results flagged for a closer look

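In groups of 4 libraries, 11 of 90 sets of values had a single library far from the other 3 relative to the range of the group. The cutoff marks about 1 set in 20 only where values are normally distributed. A gene with reads in 1 library of a group passes it by construction, so no excess can be read from 11 of 90. For 5 of the genes it was the highest library, namely Gm38910 at 3.03 CPM in susceptible mice, Ddr2 at 7.57 CPM in resilient mice, Gm43011 at 2.58 CPM and Mmrn2 at 4.38 CPM in non-defeated mice, and Rgs18 at 2.04 CPM in susceptible mice. In the other 3 libraries of its group Rgs18 had no read.

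Among measures per library, non-defeated replicate 3 stood apart with 1487 other genes at 0.5 CPM or more but without a read. The summed level of microglial markers was lowest, at 172 CPM, in non-defeated replicate 4. In susceptible mice, proliferating cell markers were lowest in replicate 2 at 3.42 CPM, medial habenula markers were highest in the same library at 1289 CPM, and blood cell markers were highest in replicate 1 at 5723 CPM. Endothelial and mural markers were highest in resilient replicate 4, at 386 CPM.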

How the results depend on the processing

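The choice of 207 genes depended on the level required and on single libraries. At a mean of 1 CPM, 83 genes were left, of which 32 were unread in the non-defeated group, 46 in the susceptible and 10 in the resilient group. Leaving out 1 library gave 235 to 339 genes, of which 83 to 190 were unread in the non-defeated group, 93 to 226 in the susceptible and 24 to 183 in the resilient group. The totals moved most without susceptible replicate 1, to 320, and without resilient replicate 4, to 339. Each library left out adds genes to its own group by construction. Without non-defeated replicate 3 and resilient replicate 4 together, added after seeing the data, 374 genes were chosen, 188 of them unread in resilient mice. A mean of 0.25 CPM, at most 1 read per library, medians, and TMM-scaled CPM gave 246, 234, 164 and 205 genes.

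Calls for resilient against non-defeated mice numbered 1 in the main test, and 2 with DESeq2 size factors, no filter or a mean of at least 1 CPM. They numbered 0 with edgeR, a non-robust fit, the title letter as a term or only these 2 groups, 88 with DESeq2, 8 with voom and 0 to 9 with 1 library left out, the 9 without resilient replicate 4. Calls for susceptible against resilient mice numbered 8 in the main test, 1 with a pseudocount of 0.5, 0 with edgeR, a non-robust fit or only these 2 groups, 38 with DESeq2, 16 with voom and 0 to 10 with 1 library left out, the 10 without non-defeated replicate 3, 2 without non-defeated replicate 4 and 0 without any other. DESeq2 called 23 genes for susceptible against non-defeated mice, and limma-trend 0. With the replicate block, 0 genes were called in all 3 comparisons, and same-numbered libraries were not shown to be pairs. The block cannot change a log2 difference or a list median, because every replicate number occurs in every group. It changed no call of a named gene.

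Medians with edgeR, DESeq2 and voom are of log2 differences taken without adding 1 CPM, a scale unlike that of the main test. The median of the 21 cell cycle genes for resilient against non-defeated was 0.20 in the main test. It was 0.37 with voom, 0.64 with the title letter and 0.19 to 0.34 with 1 library left out. For susceptible against resilient it was -0.34 with the letter and -0.28 to -0.0342 with 1 library left out, and for susceptible against non-defeated 0.0083 to 0.14. The median of the proliferating cell genes for susceptible against non-defeated was 0.0009 at a mean of at least 1 CPM, 0.73 with edgeR, 0.73 with DESeq2 and 0.0012 with only 2 groups. For resilient against non-defeated it was 0.15, 1.33 and 1.33 with the first 3 of these settings, 1.12 with voom, 0.0302 with the letter and 0.14 to 0.46 with 1 library left out. For susceptible against resilient it was -1.07 with edgeR, -1.06 with DESeq2, -0.92 with voom and -0.58 with only 2 groups. In the E2F family, the median for resilient against non-defeated, 0.17, was 0.08 at a mean of at least 1 CPM, 0.04 with edgeR, 0.03 with DESeq2 and 0.02 with the letter. It was 0.10 without E2f8, a setting added after seeing the data, and 0.09 without resilient replicate 1 to 0.31 without non-defeated replicate 1. For susceptible against non-defeated it was 0.02 to 0.26 with 1 library left out, and for susceptible against resilient 0.11 with the letter in place of -0.08. Among 21 fitted differences of named genes, 1 changed sign, Lancl3 in non-defeated over resilient mice, from 1.38 to -0.53 with the title letter. The other changes of call were 12, over 11 differences, and all became calls, with DESeq2 or, for E2f8, also with voom. For these changes the cause was not tested. Depth limits every level near 1 read, 0.0209 to 0.0300 CPM.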
